A study of Mus musculus with 25 samples.

Results

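Imprinted genes are expressed mainly from the maternal or the paternal copy, and 9 of them that belong to a network of growth regulators active before and shortly after birth were followed here through hepatocytes in which YAP was induced or its restraining kinases were deleted. The genes were H19, Igf2, Dlk1, Meg3, Rian, Peg3, Plagl1, Grb10 and Cdkn1c, taken by symbol from a table of 37117 gene symbols, in which all 9 had a row. Of these, 5 (Meg3, Peg3, Plagl1, Grb10 and Cdkn1c) had enough counts to be tested among 12970 genes, and 4 (H19, Igf2, Dlk1 and Rian) did not and are given as counts. Transcripts were read at their 3′ ends in hepatocytes sorted from dissociated mouse liver, with 500000 cells taken per sample, in 25 libraries.

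The libraries form 7 groups. ApoYap Dox mice carried ApoE-rtTA and TRE-hYAP, in which a doxycycline-dependent activator switches on human YAP, a coactivator of growth genes that the kinases LATS1 and LATS2 hold back, and drank doxycycline for 1 week (n = 3). Their controls, ApoYap ctrl, carried the same 2 transgenes and were untreated (n = 4). Lats1/2 KO mice had floxed alleles of both Lats1 and Lats2 and received an AAV8 vector 1 week before sampling, in which the TBG promoter, active in hepatocytes, drives Cre recombinase (n = 3). Lats1/2 flox ctrl mice carried the same floxed alleles without virus (n = 4). C57BL/6 mice, written BL/6, served for doxycycline alone during 1 week (n = 4), for AAV-Cre alone at 24 hours (n = 3) and untreated (n = 4). Drinking water contained 0.2 mg/ml doxycycline with 2.5% sucrose. The sources used here give no age or sex, and whether each replicate is an animal of its own is not stated, so p-values measure the spread between these libraries, which may be technical.

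Imprints are marks of DNA methylation set in the egg or the sperm and kept through life at control regions. H19, Meg3, Rian, Grb10 in most tissues and Cdkn1c are expressed from the maternal copy, and Igf2, Dlk1, Peg3 and Plagl1 from the paternal copy. Most of the group fall to low levels in liver after birth as body growth slows, and in mouse liver H19 is a classical example of a fetal gene shut down after birth. Counts per gene do not separate the parental copies, so nothing here bears on the imprints themselves.

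The start regions of 4 of the tested members are printed to show how unlike they are, since these genes are compared as a group throughout. Each sequence is the 250 bases before a RefSeq start on GRCm38.p6, 5′ to 3′ on the gene's strand. Capitals mark the core of the site bound by TEAD factors, the DNA-binding partners of YAP (GGAATG on either strand), and the site bound by PLAGL1 (GGGGCCCC, the same on both strands).
Peg3, chr7:6730420-6730669, minus strand: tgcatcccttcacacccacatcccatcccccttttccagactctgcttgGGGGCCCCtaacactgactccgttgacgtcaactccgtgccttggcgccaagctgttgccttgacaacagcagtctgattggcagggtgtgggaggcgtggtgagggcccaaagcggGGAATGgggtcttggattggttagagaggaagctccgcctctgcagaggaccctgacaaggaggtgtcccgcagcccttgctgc
Plagl1, chr10:13090582-13090831, plus strand: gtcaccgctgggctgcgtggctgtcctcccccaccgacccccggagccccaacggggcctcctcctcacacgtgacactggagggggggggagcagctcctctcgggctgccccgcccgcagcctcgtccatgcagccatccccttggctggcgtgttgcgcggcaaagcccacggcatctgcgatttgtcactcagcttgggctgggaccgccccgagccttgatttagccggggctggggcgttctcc
Grb10, chr11:12037421-12037670, minus strand: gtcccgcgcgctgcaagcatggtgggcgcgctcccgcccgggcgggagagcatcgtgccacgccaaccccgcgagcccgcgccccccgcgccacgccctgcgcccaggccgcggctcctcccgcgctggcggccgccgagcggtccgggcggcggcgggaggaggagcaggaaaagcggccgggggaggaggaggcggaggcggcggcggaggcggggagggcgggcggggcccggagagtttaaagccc
Meg3, chr12:109540746-109540995, plus strand: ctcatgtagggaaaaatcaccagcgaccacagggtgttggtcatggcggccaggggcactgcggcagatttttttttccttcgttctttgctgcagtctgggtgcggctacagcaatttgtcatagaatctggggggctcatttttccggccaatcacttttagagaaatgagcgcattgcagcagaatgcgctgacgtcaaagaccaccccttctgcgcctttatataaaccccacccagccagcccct
Peg3 held a TEAD core 84 bases before its start and a PLAGL1 site 201 bases before it, and these 2 motifs do not overlap. The windows of Plagl1, Grb10 and Meg3 held neither motif. Over all 32851 windows of this length, 12.642% held a TEAD core and 0.889% a PLAGL1 site. The printed Grb10 window had 40 CpG dinucleotides, the Plagl1 window 19, the Meg3 window 10 and the Peg3 window 8. The median over all windows was 6. CpG counts depended on the start chosen, as the second windows of Grb10 and Meg3, not printed, had 8 and 0. RefSeq windows were matched for 7 of the 9 members, 12 windows in all, and none was matched for H19 or Cdkn1c. In the windows not printed, Rian held 1 TEAD core, 103 bases before its start, and 3 of the 4 Igf2 windows held at least 1. The windows of Dlk1 and the second windows of Meg3 and Grb10 held no match. A match describes the letters alone.

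In the GENCODE M21 annotation of GRCm38, H19 (7:142575529-142578143), Igf2 (7:142650766-142666816) and Cdkn1c (7:143458339-143461050) lie near one another on chromosome 7, which also holds Peg3 (7:6703892-6730431), all on the minus strand. Dlk1 (12:109452823-109463336), Meg3 (12:109541001-109571726) and Rian (12:109603940-109661716) follow each other on the plus strand of chromosome 12. Plagl1 lies on chromosome 10 (10:13060504-13131694, plus strand) and Grb10 on chromosome 11 (11:11930508-12038683, minus strand).

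Library totals ran from 8107539 to 16515330 counts, so that 1 count was worth 0.0361 to 0.141 CPM (counts scaled to library size, here with TMM factors). Lats1 had 5.10, 4.79 and 2.97 CPM in Lats1/2 KO livers, against 13.9, 12.3, 12.98 and 14.9 CPM in Lats1/2 flox ctrl livers, and fell (log2 fold change -1.67, adjusted p = 4.1e-06). Lats2 had 7.70, 17.8 and 10.5 CPM in Lats1/2 KO livers, against 12.9 to 13.7 CPM in Lats1/2 flox ctrl livers (log2 fold change -0.13, adjusted p = 0.651, or 0.36 with total counts alone), and it is not given which part of the gene is deleted, so a 3′ tag may lie outside it. Mouse Yap1 fell in ApoYap Dox livers (-1.05, or -0.13 and not called with total counts alone), and whether transgene reads were counted is not given. Markers of other liver cell types moved with the 2 main comparisons. Summed over 17 macrophage markers, levels were 7220 to 11660 CPM in ApoYap Dox libraries and 96.9 to 218 CPM in ApoYap ctrl libraries, and 734 to 1722 CPM in Lats1/2 KO and 97.5 to 287 CPM in Lats1/2 flox ctrl libraries. The 16 endothelial markers summed to 655 to 1136 CPM in ApoYap Dox and 72.1 to 165 CPM in ApoYap ctrl, and to 395 to 924 CPM in Lats1/2 KO and 74.8 to 203 CPM in Lats1/2 flox ctrl. The 18 stellate cell markers summed to 187 to 290 CPM in ApoYap Dox and 72.8 to 158 CPM in ApoYap ctrl, and to 270 to 788 CPM in Lats1/2 KO and 88.1 to 98.0 CPM in Lats1/2 flox ctrl. All 14 hepatocyte markers fell in ApoYap Dox livers and 12 of 14 in Lats1/2 KO livers, and with total counts alone 11 and 7 fell and 1 rose in each. The library Lats1/2 KO 2 was the highest of its group for macrophage, endothelial and stellate markers. The part of these cells in the members' changes was not tested. In such bulk samples, fewer cells of a type and less RNA per cell cannot be told apart.

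**Figure D1:**
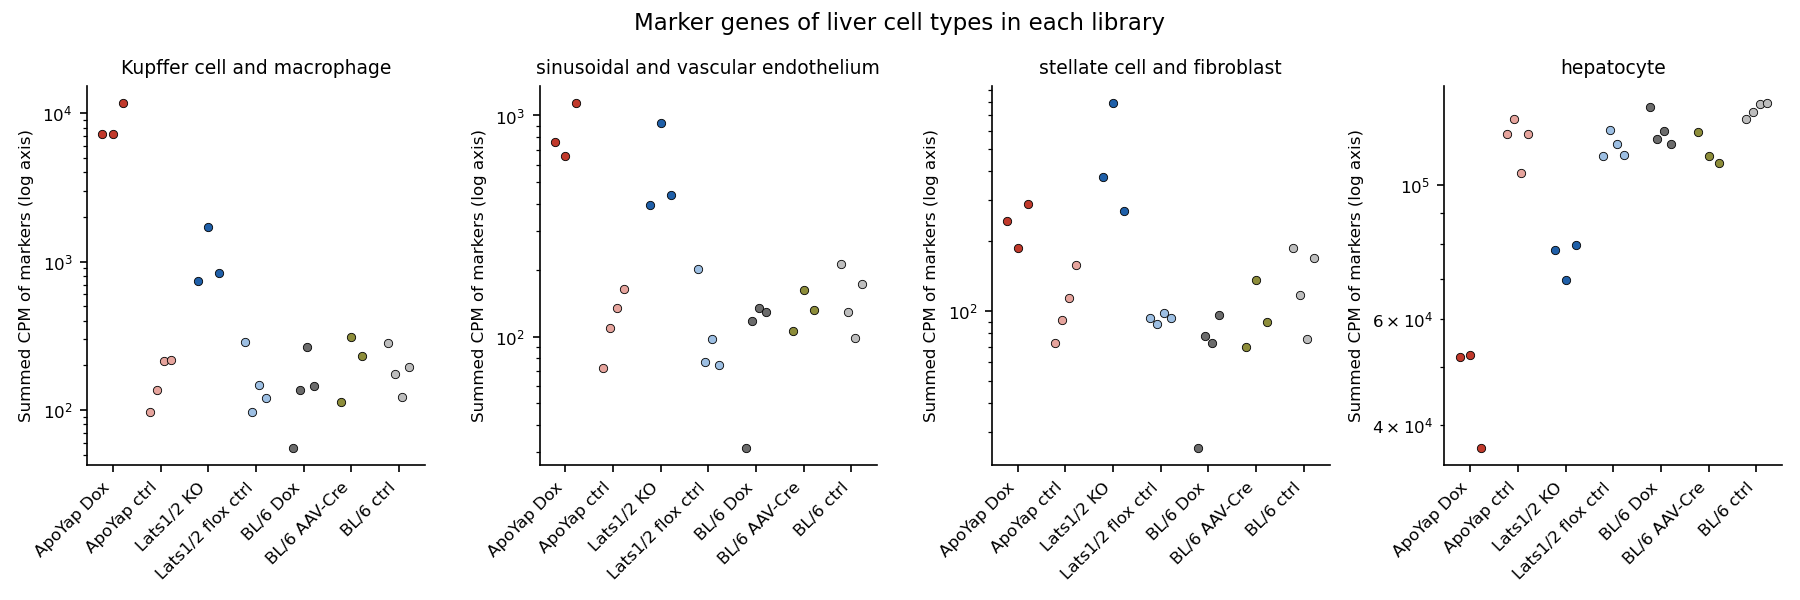
Summed CPM (log axis) of marker genes of 4 liver cell types in each of the 25 libraries, 1 point per library, by group. Macrophage and endothelial sums of the ApoYap Dox and Lats1/2 KO libraries lie above those of every control library, and their hepatocyte sums lie below.

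YAP induction raised all 5 tested members, and the Lats1/2 knockout raised 2 of them. Of all genes tested, 67% changed with YAP induction, 35% upwards, and 38% changed in the knockout, 20.6% upwards, at a Benjamini-Hochberg adjusted p under 0.05 in edgeR's quasi-likelihood test. A gene higher with YAP was thus common. How many of all genes also separated the compared libraries without overlap, as given below for members, was not counted. The low-count filter asked for 0.936 CPM without TMM scaling in at least 3 libraries. Plagl1 passed it only through ApoYap Dox and Lats1/2 KO libraries, and Meg3 through no untreated library. The count of 5, and the separation of ApoYap Dox from ApoYap ctrl for Plagl1 and Meg3, are therefore not independent of the filter.

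**Figure D2:**
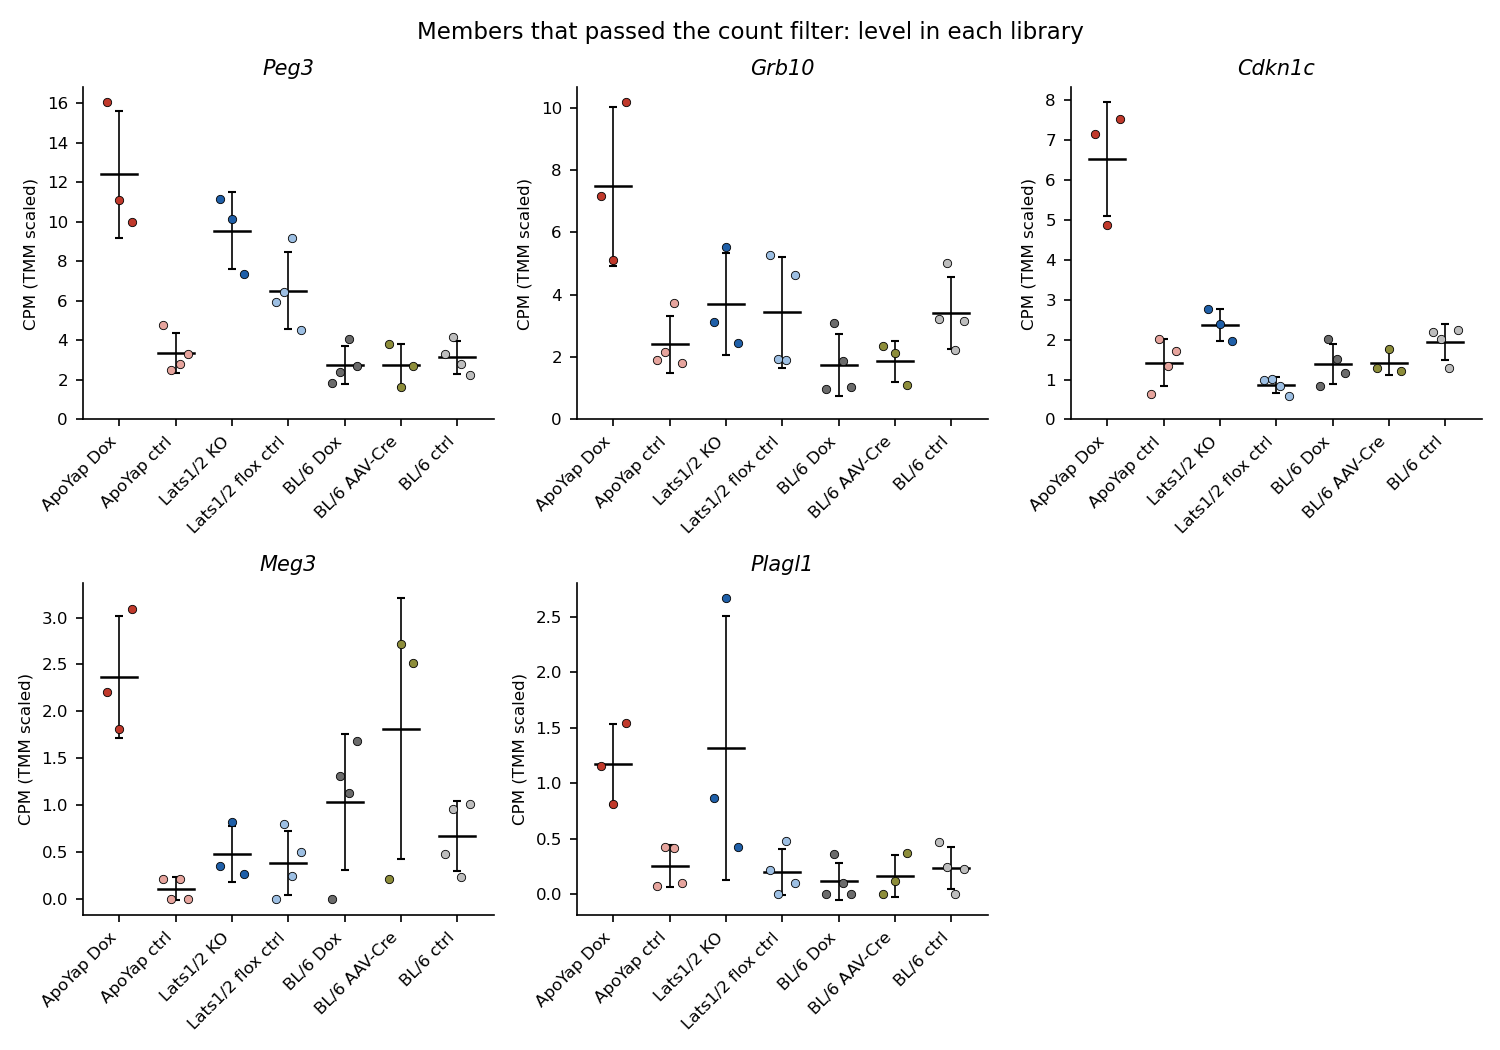
TMM-scaled CPM of the 5 tested members in each library, 1 point per library, with the group mean (bar) and SD (whisker). For Peg3, Grb10, Cdkn1c, Meg3 and Plagl1, every ApoYap Dox library lies above every ApoYap ctrl library. The share of all genes tested that do so was not counted, and 35% were called higher. For Cdkn1c the Lats1/2 KO libraries also lie above all Lats1/2 flox ctrl libraries.

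Cdkn1c encodes p57, an inhibitor of cyclin-dependent kinases that halts the cell cycle, and it rose in both models. It had 7.15, 4.89 and 7.53 CPM in ApoYap Dox libraries, against 0.636, 2.01, 1.35 and 1.70 CPM in ApoYap ctrl libraries. All 3 induced libraries were above all 4 controls, and the log2 fold change was 2.20 ± 0.32 (SE, adjusted p = 1.13e-06). In the knockout it had 2.77, 2.40 and 1.96 CPM in Lats1/2 KO libraries, against 0.988, 1.02, 0.834 and 0.592 CPM in Lats1/2 flox ctrl libraries. These groups did not overlap either, and the log2 fold change in the knockout was 1.46 ± 0.36 (SE, adjusted p = 0.00241). The Lats1/2 KO libraries did overlap untreated BL/6 livers, where Cdkn1c had 2.20, 2.03, 1.29 and 2.25 CPM. Lats1/2 flox ctrl livers averaged 0.859 ± 0.196 CPM and BL/6 ctrl livers 1.94 ± 0.443 CPM (SD, n = 4 each), a log2 difference of -1.19 that did not pass the threshold (adjusted p = 0.0566). Without the library Lats1/2 KO 2 and without each other library of the comparison in turn, the knockout value stayed between 1.30 and 1.58 and remained called. An unnamed antisense transcript model, Gm44732, overlaps Cdkn1c and is not among the table's symbols, and the use of strand in counting is not given.

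Grb10 encodes an adaptor that binds the insulin and IGF1 receptors and restrains their signal. It had 7.15, 5.11 and 10.2 CPM in ApoYap Dox libraries, against 1.91, 2.18, 3.74 and 1.80 CPM in ApoYap ctrl libraries, with no overlap. The log2 fold change was 1.64 ± 0.40 (SE, adjusted p = 0.000804). In the knockout it had 3.11, 5.54 and 2.44 CPM in Lats1/2 KO libraries, against 5.27, 1.93, 1.91 and 4.63 CPM in Lats1/2 flox ctrl libraries. The groups overlapped, with Lats1/2 KO 2 above every control and the other knockout libraries between the controls, at a log2 fold change of 0.09 (95% interval -0.75 to 0.94, adjusted p = 0.883).

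Plagl1, also called Zac1, encodes a zinc-finger transcription factor that, in mouse, binds the regulatory regions of other imprinted genes. It had 1.16, 0.814 and 1.54 CPM in ApoYap Dox libraries (32, 18 and 32 counts), against 0.0706, 0.419, 0.416 and 0.1003 CPM in ApoYap ctrl libraries (1, 5, 4 and 1 counts). The groups did not overlap, and the log2 fold change was 2.21 ± 0.77 (SE, adjusted p = 0.0141). That call was lost without ApoYap Dox 3 (1.97, adjusted p = 0.0516) and without ApoYap ctrl 1 (1.86, adjusted p = 0.0517). In the knockout it had 0.865, 2.67 and 0.424 CPM in Lats1/2 KO libraries (10, 39 and 8 counts), against 0.219, 0, 0.476 and 0.0986 CPM in Lats1/2 flox ctrl libraries (2, 0, 4 and 1 counts). The lowest knockout library lay below the highest control. The rise of 2.70 ± 0.85 on the log2 scale (SE, adjusted p = 0.0136) rested on Lats1/2 KO 2, the knockout library with the highest stellate and macrophage sums of its group, without which it was 1.64 (adjusted p = 0.207). The gene with the pattern most like that of Plagl1 over the 25 libraries was Des, which encodes desmin and is one of the stellate cell markers (Pearson r = 0.904 over libraries that share groups and depth, a description only).

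Peg3 encodes a zinc-finger protein with roles in growth and, in mice, in maternal care. It had 16.1, 11.1 and 9.99 CPM in ApoYap Dox libraries, against 4.80, 2.52, 2.80 and 3.31 CPM in ApoYap ctrl libraries. Each induced library was above each control, and the log2 fold change was 1.87 ± 0.29 (SE, adjusted p = 3.17e-06). In the knockout it had 11.2, 10.1 and 7.37 CPM in Lats1/2 KO libraries, against 5.92, 6.47, 9.17 and 4.54 CPM in Lats1/2 flox ctrl libraries. These groups overlapped by 1 control library, and the log2 fold change of 0.55 (95% interval -0.04 to 1.14) did not pass (adjusted p = 0.135). With libraries scaled by total counts alone it was 1.02 and passed (adjusted p = 0.00538), under a scaling that moved the median of all genes by 0.47 in this comparison. Untreated floxed livers were high in Peg3, with 6.53 ± 1.94 CPM, against 3.14 ± 0.814 CPM in BL/6 ctrl livers (SD, n = 4 each). That log2 difference of 1.05 ± 0.29 (SE) was called (adjusted p = 0.0379), where 4.12% of all genes were called and 3.15% were higher. It was lost on leaving out each of Lats1/2 flox ctrl 1, 2 and 3 and BL/6 ctrl 1, 3 and 4 in turn (0.84 to 1.09, adjusted p 0.0552 to 0.146).

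Meg3, Rian and Mirg are long noncoding RNAs read from the maternal copy of the chromosome 12 cluster, and Dlk1, the paternal gene beside them, encodes a membrane protein with EGF-like repeats related to NOTCH ligands. Meg3 had 61, 40 and 64 counts in ApoYap Dox libraries, against 3, 0, 2 and 0 counts in ApoYap ctrl libraries. In CPM these are 2.20, 1.81 and 3.09 in ApoYap Dox, against 0.212, 0, 0.208 and 0 in ApoYap ctrl. The rise of 4.32 ± 0.89 on the log2 scale (SE, adjusted p = 0.000149) stood against controls with almost no reads, and it ran from 3.92 to 4.99 on leaving out each library in turn. The ApoYap ctrl livers were the lowest of the 7 groups for Meg3, at 0.105 ± 0.121 CPM, against 0.669 ± 0.378 CPM in BL/6 ctrl livers (SD, n = 4 each). That log2 difference of -2.49 did not pass the threshold (adjusted p = 0.514, unadjusted p = 0.0204), and 0.439% of all genes did in that comparison. ApoYap Dox livers overlapped BL/6 AAV-Cre livers, in which Meg3 had 0.213, 2.72 and 2.51 CPM, but not BL/6 ctrl livers, in which it had 0.472, 0.955, 0.235 and 1.01 CPM. In the knockout, Meg3 had 0.346, 0.821 and 0.265 CPM in Lats1/2 KO libraries, against 0, 0.795, 0.238 and 0.493 CPM in Lats1/2 flox ctrl libraries. The groups overlapped, with Lats1/2 KO 2 just above the highest control and the other knockout libraries between the controls, at a log2 fold change of 0.30 (95% interval -1.56 to 2.15, adjusted p = 0.825).

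The neighbours of Meg3 were close to the limit of detection. Rian had 12 counts in all 25 libraries, 0, 2 and 2 in ApoYap Dox and 0, 5 and 3 in BL/6 AAV-Cre, and 0 in the other 5 groups. The AAV-Cre libraries with Rian reads were the 2 with high Meg3. Mirg, which is not 1 of the 9 and was named after its values were seen, had 5 counts in each ApoYap Dox library and 0 to 2 in each of the other libraries. Dlk1 had 14 counts in all, 3, 0 and 1 in ApoYap Dox and 0 in each ApoYap ctrl library, and 0, 2 and 0 in Lats1/2 KO against 0, 2, 0 and 0 in Lats1/2 flox ctrl. BL/6 livers had 1, 2, 0 and 1 Dlk1 counts with doxycycline, 0, 0 and 2 with AAV-Cre, and 0 in each untreated library. The BL/6 Dox mean, 0.127 CPM, was above the ApoYap Dox mean, 0.0522 CPM. No difference in Dlk1 or Rian was detectable at this depth.

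H19, a noncoding RNA, and Igf2, which encodes a fetal growth factor, share an imprinting control region and enhancers. H19 had 13, 9 and 71 counts in ApoYap Dox libraries, against 4, 0, 0 and 0 counts in ApoYap ctrl libraries. All 3 induced libraries exceeded all 4 controls, and 71 of the 93 induced counts came from ApoYap Dox 3, the library with the highest macrophage sum. The ratio of scaled counts was 15.1 (exact binomial 95% interval 5.69 to 56.5, counting error only), and 5.05 (1.71 to 20.1) without ApoYap Dox 3. When the filter was dropped and 21426 genes were fitted, edgeR called H19 higher (log2 fold change 3.95 ± 1.04 SE, adjusted p = 0.00204), but not without ApoYap Dox 3 (2.31, adjusted p = 0.127). In the knockout it had 3, 5 and 1 counts in Lats1/2 KO libraries, against 3, 0, 0 and 0 counts in Lats1/2 flox ctrl libraries, a ratio of 2.43 whose interval of 0.606 to 13.9 includes no change. H19 was at 0 in all 4 BL/6 ctrl libraries, and had 0, 2, 1 and 0 counts in BL/6 Dox and 4, 0 and 2 in BL/6 AAV-Cre. BL/6 AAV-Cre 1, at 0.427 CPM, lay above ApoYap Dox 2, at 0.407 CPM. In the edgeR fit without the filter, H19 net of doxycycline was not called (0.73 ± 1.58 SE, adjusted p = 0.95). Igf2 had 18 counts in all 25 libraries, 1, 2 and 4 in ApoYap Dox against 2, 2, 0 and 0 in ApoYap ctrl, and 2, 2 and 1 in Lats1/2 KO against 0, 1, 0 and 0 in Lats1/2 flox ctrl. The ratios, 1.13 (0.288 to 5.28) with YAP and 4.05 (0.453 to 191) in the knockout, are within counting error, so no difference in Igf2 was detectable at this depth. Igf2os, the antisense gene over Igf2, had 0 counts. Another annotated gene model over Igf2, Gm49394, is not among the table's symbols.

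**Figure D3:**
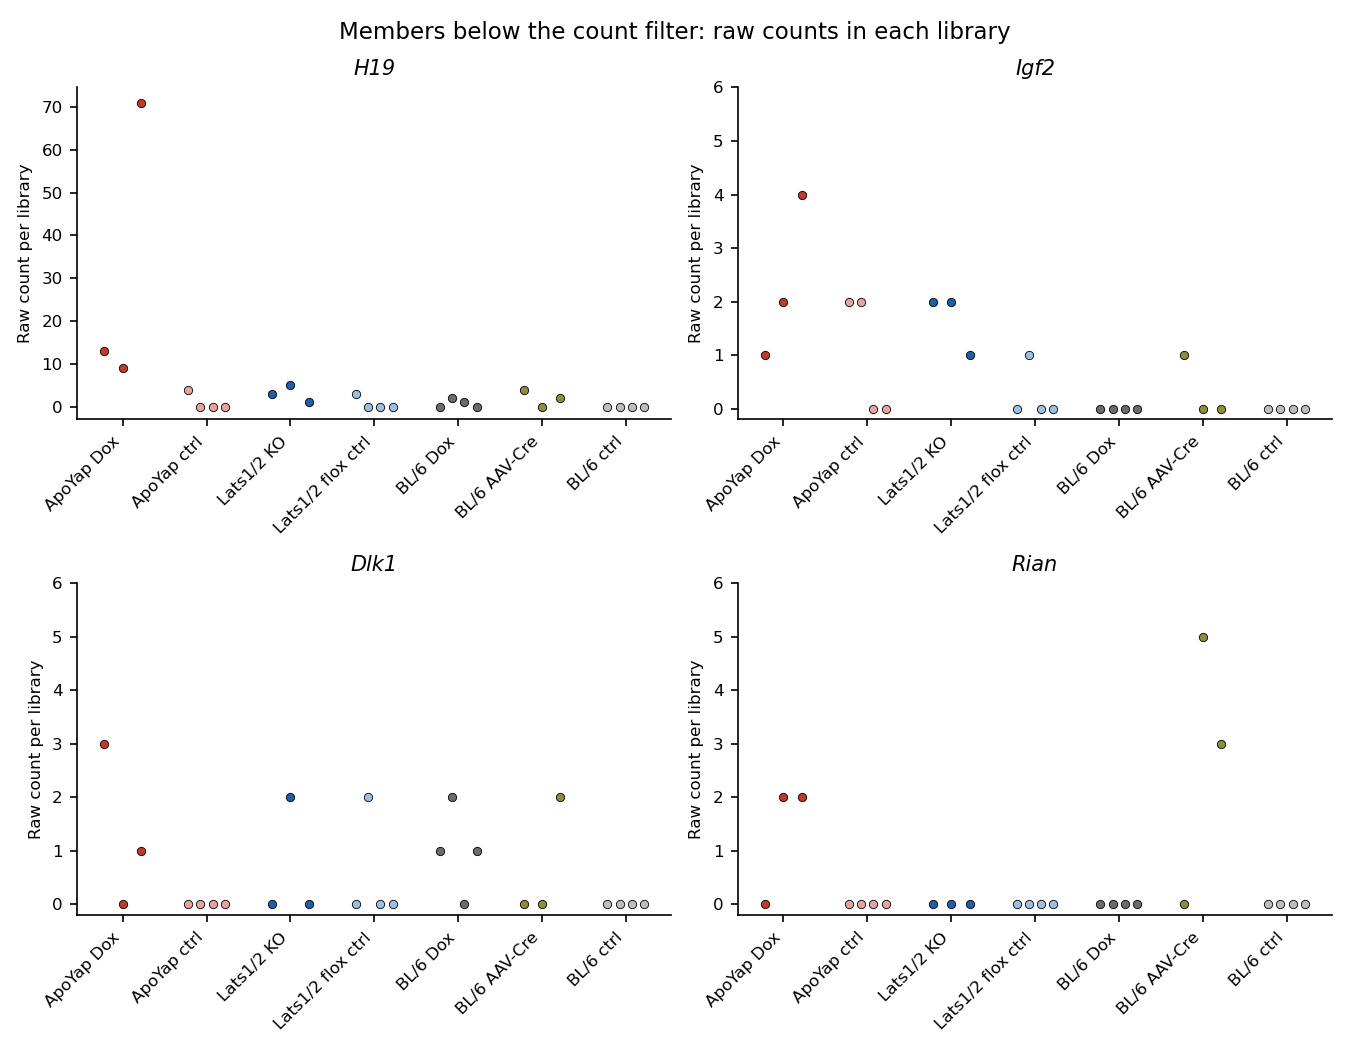
Raw counts of the 4 members below the count filter in each library, 1 point per library, by group. H19 stands out in the ApoYap Dox libraries, with 13, 9 and 71 counts, while Igf2, Dlk1 and Rian stay at 5 counts or fewer in every library.

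Doxycycline and virus were tested by themselves in BL/6 livers, and none of the 5 members was called with either. In those comparisons 0.123% of genes were called for BL/6 Dox and 0.301% for BL/6 AAV-Cre, so calls were rare in both. At an unadjusted p under 0.05 in edgeR's test, the count was 1 member with doxycycline, Grb10, and 0 with the virus. Grb10 had 0.987, 3.10, 1.89 and 1.04 CPM in BL/6 Dox libraries, against 3.22, 5.01, 2.24 and 3.15 CPM in BL/6 ctrl libraries (log2 fold change -0.93, adjusted p = 0.385). DESeq2 called no member in either comparison, but gave no adjusted p for Plagl1 in either or for Meg3 with the virus, so it could not call these. The intervals were wide for the least abundant genes, running from -3.33 to 1.27 for Plagl1 with doxycycline and from -0.11 to 3.00 for Meg3 with the virus. Meg3 in the virus group split, at 0.213 CPM in 1 library and 2.72 and 2.51 CPM in the others. The library BL/6 Dox 1 was lowest of its group in the sum over the 9 members, at 3.81 CPM against 6.73 to 9.65 CPM in the other 3, and also lowest for macrophage markers, at 55.4 CPM, for endothelial markers, at 31.4 CPM, and for stellate markers, at 25.7 CPM.

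**Figure D4:**
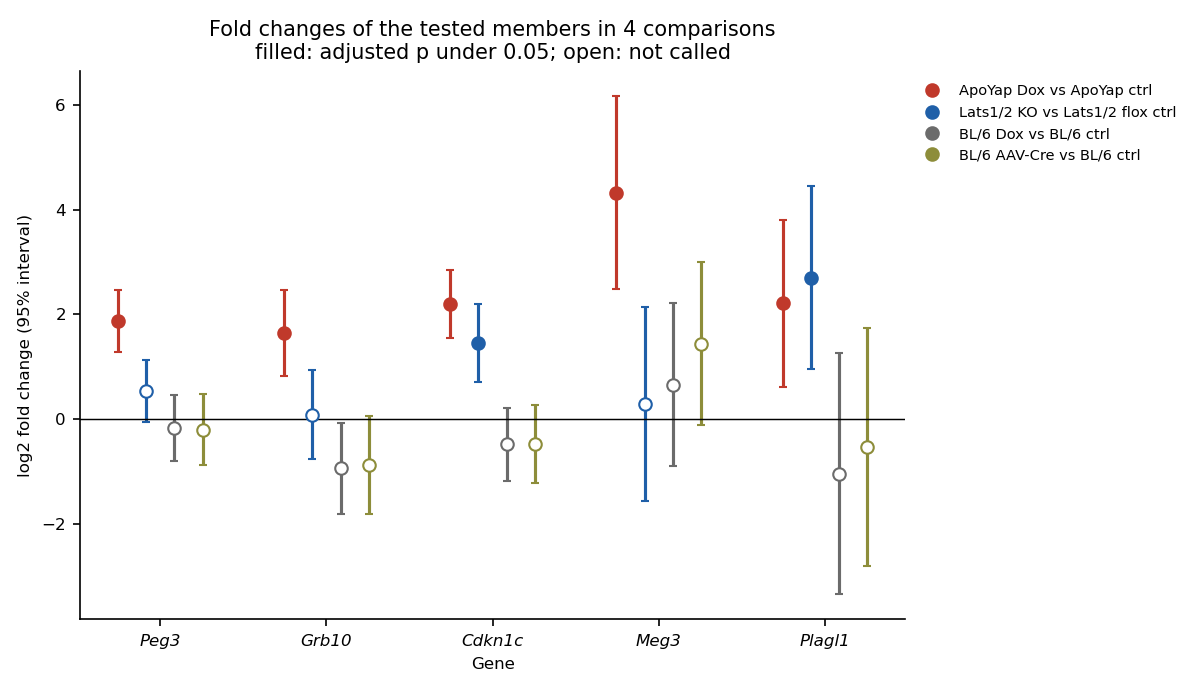
Log2 fold change (points) and 95% interval (whiskers) of the 5 tested members in YAP induction, the Lats1/2 knockout, doxycycline alone and AAV-Cre alone, with filled points for adjusted p under 0.05. All 5 red points are filled and positive, Cdkn1c and Plagl1 are filled in the knockout, and every doxycycline and virus point is open.

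Net of the doxycycline response of BL/6 livers, all 5 members stayed higher with YAP, in a comparison in which 54.1% of all genes were called and 26.7% were higher. The net log2 differences were 3.66 ± 1.22 for Meg3, 2.68 ± 0.46 for Cdkn1c, 2.57 ± 0.58 for Grb10 and 2.04 ± 0.42 for Peg3 (SE, adjusted p from 2.61e-05 to 0.0134). Plagl1, at 3.24 ± 1.37 (SE), was just inside the threshold (adjusted p = 0.0483), and 10 of the 15 fits that each left out 1 library lost it (adjusted p 0.0624 to 0.194). These were the fits without ApoYap Dox 1 or 3, ApoYap ctrl 1 or 4, BL/6 Dox 1, 3 or 4, or BL/6 ctrl 1, 2 or 4. Net of the virus response, Cdkn1c alone of the 5 was higher with the knockout, by 1.92 ± 0.51 (SE, adjusted p = 0.00798), where 24.4% of genes were called and 13% were higher. The virus libraries were taken at 24 hours and the knockout at 1 week, so time and virus cannot be told apart there. Without Lats1/2 KO 3, Plagl1 was also called net of the virus (3.66, adjusted p = 0.0496, against 0.0986 with all libraries). These comparisons share their control libraries with the ones above.

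The response to the knockout was set against the response to YAP by a test of the difference, in which 29.8% of genes were called and 12.4% were lower in the knockout. The knockout response, less the YAP response, was -4.02 ± 1.34 for Meg3 (SE, adjusted p = 0.0253), -1.55 ± 0.58 for Grb10 (SE, adjusted p = 0.044) and -1.32 ± 0.41 for Peg3 (SE, adjusted p = 0.016) on the log2 scale. Cdkn1c (-0.75, 95% interval -1.76 to 0.27) and Plagl1 (0.49, 95% interval -2.00 to 2.97) did not pass, and these intervals allow sizable differences in both directions for Plagl1 and a smaller knockout response for Cdkn1c. The number of members called lower was 3 with all libraries and 0 to 3 on leaving out each library in turn, being 0 without Lats1/2 KO 3. Peg3 also lost its call without ApoYap Dox 1 (-1.09, adjusted p = 0.0623), and Meg3 without ApoYap Dox 3, ApoYap ctrl 2, Lats1/2 flox ctrl 2 or Lats1/2 flox ctrl 4 (-3.87 to -3.43, adjusted p 0.0511 to 0.0929). Grb10 lost its call in 9 of the 14 such fits (-1.58 to -1.27, adjusted p 0.0632 to 0.14), namely without ApoYap Dox 1 or 3, ApoYap ctrl 1, 2 or 4, Lats1/2 KO 1 or 3, or Lats1/2 flox ctrl 1 or 4. The macrophage sums also differed between the models, with lower values in Lats1/2 KO than in ApoYap Dox.

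Ordered by mean level, ApoYap Dox came first for Cdkn1c at 6.52 ± 1.43 CPM, apart from the next group, Lats1/2 KO, at 2.38 ± 0.403 CPM (SD, n = 3 each). Below it, neighbouring groups overlapped down to Lats1/2 flox ctrl at 0.859 CPM. For Peg3 and Grb10 the ApoYap Dox mean was also first, at 12.4 ± 3.24 and 7.48 ± 2.55 CPM, and each overlapped the Lats1/2 KO group, at 9.55 ± 1.96 CPM for Peg3 and 3.70 ± 1.63 CPM for Grb10 (SD, n = 3 each). For Plagl1 the Lats1/2 KO mean of 1.32 ± 1.19 CPM and the ApoYap Dox mean of 1.17 ± 0.365 CPM overlapped (SD, n = 3 each), with ApoYap Dox apart from ApoYap ctrl, the third, at 0.251 CPM. For Meg3, each group overlapped the next in the order ApoYap Dox, BL/6 AAV-Cre, BL/6 Dox, BL/6 ctrl, Lats1/2 KO, Lats1/2 flox ctrl and ApoYap ctrl.

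The tested members were only loosely alike over the 25 libraries, which share groups and depth. Pearson correlations of log2 CPM ran from 0.175 for Meg3 with Peg3 to 0.711 for Plagl1 with Cdkn1c. Among 12045 other genes, the pattern of Cdkn1c was most like those of Rgs10 (0.924), which encodes a regulator of G protein signalling, Trim35 (0.922) and Ankrd1 (0.922), a well-known target of YAP. Ankrd1 had log2 fold changes of 4.89 with YAP and 2.94 in the knockout. Peg3 was most like Pnn (0.935), Cntrl (0.894) and Pkd2 (0.888). Grb10 was most like Tamalin (0.836), Gng2 (0.805) and Pxdn (0.804). Meg3 had the weakest matches, with Hps1 (0.779), Snx18 (0.727) and Irf1 (0.711), an interferon-induced transcription factor. Plagl1, after Des, was most like Chst2 (0.893) and Rcn1 (0.892).

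Other imprinted genes went both ways, in proportions that depended on the scaling. Of 33 other imprinted genes tested (some imprinted in few tissues), 10 rose and 11 fell with YAP, at a median log2 fold change of -0.01 against 0.07 over all genes. In the knockout 5 rose and 8 fell, at a median of -0.20 against -0.03 over all genes. With total counts alone, 21 rose and 6 fell with YAP (median 0.91 against 0.99 over all genes), and 11 rose and 2 fell in the knockout (0.27 against 0.44). The 4 with the smallest p with YAP all fell, namely Smoc1 (-1.79), which encodes a secreted matrix protein, Tfpi2 (-3.54), Dhcr7 (-2.87), a late enzyme of cholesterol synthesis, and Ddc (-3.08). In the knockout these were Smoc1 (-1.06) and the amino acid transporter Slc38a4 (-0.97), which fell, and the creatine synthesis enzyme Gatm (2.64) and the stellate cell marker Dcn (2.54), which rose. Named after their values were seen, Airn, the paternal antisense RNA that silences Igf2r, rose by 2.03 with YAP and 1.89 in the knockout (adjusted p = 0.000243 and 0.00798), while Igf2r, the receptor that clears IGF2, was at -0.07 and 0.09 and was not called. With total counts alone Igf2r was at 0.85 and 0.56 and was called in both (adjusted p = 0.000533 and 0.0257).

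**Figure D5:**
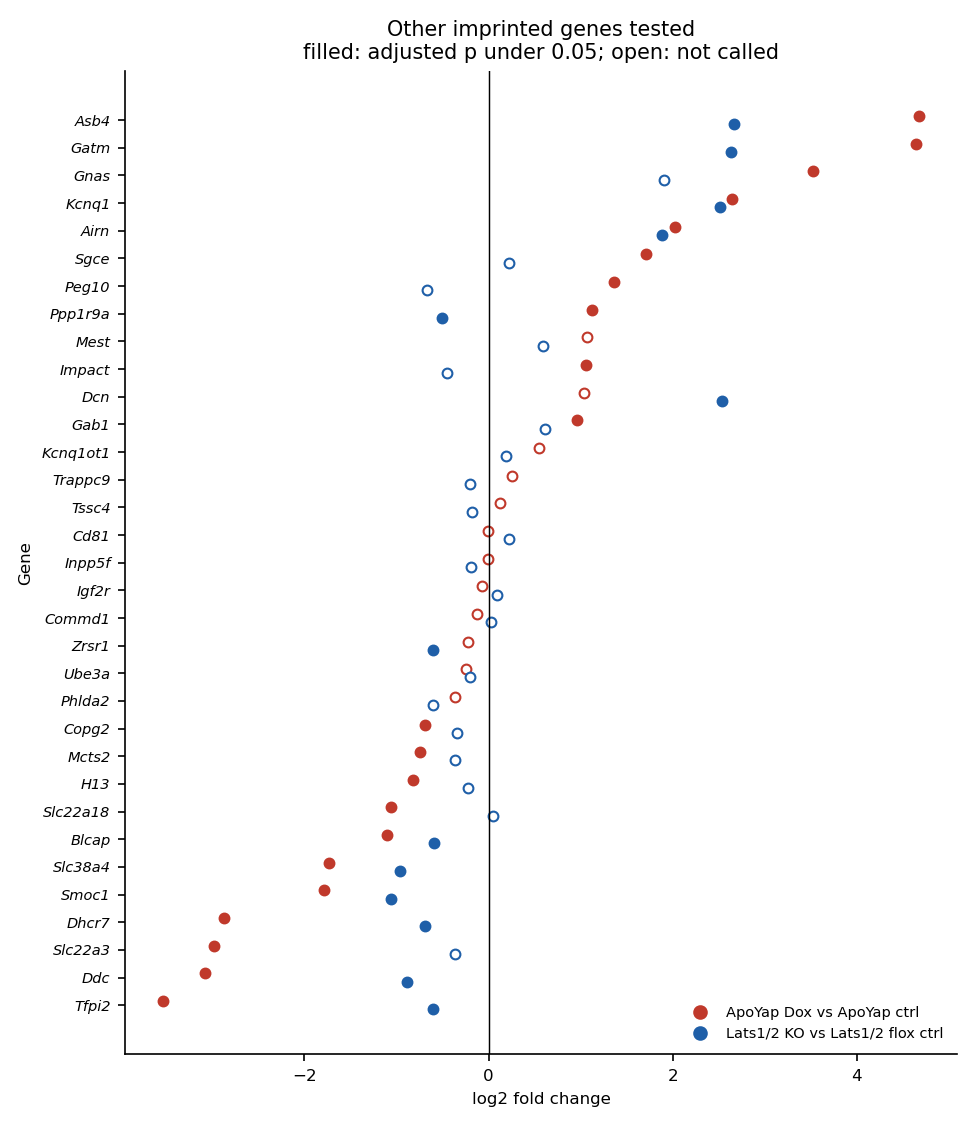
Log2 fold change of 33 other imprinted genes with YAP induction (red) and in the Lats1/2 knockout (blue), ordered by the YAP value, with filled points for adjusted p under 0.05. Genes lie on both sides of 0, with 10 higher and 11 lower with YAP and 5 higher and 8 lower in the knockout.

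Of 26 genes of the IGF pathway, through which several of the 9 members act, 7 rose and 12 fell with YAP (median -0.27). In the knockout 5 rose and 7 fell (median -0.03). Over all genes tested, 67% were called with YAP and 38% in the knockout. With total counts alone this turned to 15 higher and 5 lower with YAP (median 0.65) and 11 higher and 2 lower in the knockout (median 0.44). The binding protein Igfbp2 fell by 5.05 with YAP and fell by 2.86 in the knockout, and Grb7, an adaptor related to Grb10, fell by 1.85 with YAP and fell by 0.68 in the knockout, the second not called with total counts alone (-0.22). Igfals, which stabilises circulating IGF1, fell by 3.01 with YAP, and Igf1, the main growth factor made by adult liver, fell by 1.63. In the knockout the binding protein Igfbp4 fell by 1.14, and Igfbp7, which endothelial and stellate cells also express, rose by 2.17. Named after their values were seen, Igf1r, Igf2bp1 and Stc2 were among the 7 that rose with YAP, by 3.59, 7.26 and 8.27. Igf1r, the gene of the IGF1 receptor, also rose in the knockout, by 2.23.

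All 6 other tested inhibitors of cyclin-dependent kinases rose beside Cdkn1c in both models, at medians of 2.27 with YAP and 2.38 in the knockout. Over all genes tested, 35% were higher with YAP and 20.6% in the knockout, which applies to each list of this paragraph. In the knockout, the calls of Cdkn2a (4.35 ± 1.70 SE, adjusted p = 0.048) and Cdkn1b (0.44, adjusted p = 0.0365) were near the threshold. With doxycycline alone none of the 6 was called in BL/6 livers, and with AAV-Cre alone 1, Cdkn1a, was called higher (log2 fold change 3.29 ± 0.49 SE, adjusted p = 0.00741). Net of doxycycline all 6 were called higher with YAP, as were 26.7% of all genes. The share of all genes called higher net of AAV-Cre was 13%. Net of AAV-Cre only Cdkn1b (0.78), Cdkn2c (2.37) and Cdkn2d (3.20) were called higher with the knockout, and Cdkn1a (-1.05, adjusted p = 0.27), Cdkn2a (5.70, adjusted p = 0.0807) and Cdkn3 (4.76, adjusted p = 0.051) were not called. With YAP the smallest p belonged to Cdkn1b (1.14), Cdkn2c (2.22), Cdkn2a (5.60) and Cdkn2d (1.65), and in the knockout to Cdkn2c (2.52), Cdkn2d (2.01), Cdkn3 (4.73) and Cdkn1a (2.24). Cdkn3 is a phosphatase that acts on these kinases and is made by dividing cells. Of 10 NOTCH genes related to Dlk1, 6 rose and none fell in both models, at medians of 1.84 and 1.19. With YAP these were led by the ligand Jag1 (3.74), the NOTCH target Hey1 (5.17), the ligand Dll4 (3.01) and Dlk2 (6.09), and in the knockout by the receptor Notch4 (2.68), which endothelium expresses, Dll4 (2.27), Hes1 (1.29) and Heyl (3.49). Of 5 genes tested as relatives or partners of Plagl1, 4 rose with YAP, Tcf4 (1.59), Siva1 (1.17), Plagl2 (1.69) and Trp53 (1.25), and 1, Tcf4 (0.93), in the knockout.

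More factors that copy or guard DNA methylation rose than fell in both models. Of 21 tested, 15 rose and 2 fell with YAP (median 0.59), and 8 rose and none fell in the knockout (median 0.19). The maintenance methyltransferase Dnmt1 rose by 2.59 with YAP and 1.33 in the knockout, its recruiting factor Uhrf1 by 5.56 and 4.91, the chromatin remodeller Hells by 4.07 and 2.75, and Smchd1, which silences imprinted clusters and the inactive X, by 1.60 and 0.78. Dnmt1, Uhrf1 and Hells are also made at higher levels in dividing cells. Of 16 genes silenced in liver after birth or acting in that silencing, 9 rose and 4 fell with YAP (median 1.88), and 8 rose and 1 fell in the knockout (median 1.26). Gpc3, a cell-surface proteoglycan of fetal liver, rose by 8.76 with YAP and 6.44 in the knockout, Scd2 by 4.16 and 2.40, Spink1 by 6.49 and 4.55, and the cell-cycle factor Foxm1 by 4.67 and 4.68. Under TMM, RLE and total counts alone, higher genes outnumbered lower ones in each of the following lists. These were the inhibitors, the NOTCH genes, the relatives of Plagl1, the methylation factors, and the genes silenced after birth or acting in that silencing. The same held over all genes tested. With YAP these were 4536 against 4148 under TMM, 4954 against 3737 under RLE and 8613 against 1638 with total counts alone. In the knockout they were 2668 against 2258, 2892 against 1843 and 5781 against 572, in the same order. The direction alone thus does not set these lists apart. Apart from the inhibitors, no gene of these lists was called with doxycycline alone or AAV-Cre alone. Net of AAV-Cre the genes called higher with the knockout were 3 of 10 NOTCH genes, 2 of 5 relatives of Plagl1, 7 of 21 methylation factors and 6 of 16 silenced genes, and none was called lower. Over all genes, 24.4% were called there and 13% were higher. The virus libraries were taken at 24 hours and the knockout at 1 week, so time and virus cannot be told apart in these counts. No difference between any of these lists and other genes was tested.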

How the data were processed

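The authors deposited 1 table of raw counts, whole numbers per gene symbol and library with no normalization. Libraries were made with QuantSeq 3′ mRNA-Seq FWD, per the labels' protocols, so a count does not depend on gene length. Per the submitters' processing notes, the tools were FastQC, cutadapt and STAR 2.6.1d, and the build was mm10, also named GRCm38. How reads were assigned to genes, with which annotation and whether by strand, is not given in the sources used here. No molecular identifiers are named.

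In R 4.3.3, genes were filtered with filterByExpr of edgeR 4.0.16 (minimum count 10, minimum total 15), and 12970 remained, in libraries scaled by TMM. A robust quasi-likelihood fit with 1 mean per group over all 25 libraries was tested by 9 contrasts, with Benjamini-Hochberg adjustment over all genes tested and a threshold of 0.05. Each SE was taken from the log2 fold change and its F statistic, and intervals are 95%. The fit was also run on simulated counts that used its own estimates of spread. Changes were simulated only in genes expected to have at least 10 counts in untreated libraries, which Meg3 and Plagl1 did not reach. No result here rests on that run. Ratios of members below the filter use scaled counts with exact binomial intervals.

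Alternatives were DESeq2 1.42.0, RLE factors, total counts alone, no filter, only the compared groups, a replicate block and leaving out each library in turn. H19 without its highest library and the gene lists under other scalings were added after seeing the data. The members and gene lists were chosen with earlier results of these data known. The named genes are the members, Lats1, Lats2 and Yap1, up to 4 genes of each list with the smallest p in YAP induction and up to 4 in the knockout, and the 3 genes most like each tested member by Pearson correlation of log2 CPM (prior count 2), except where the text says otherwise. Promoter windows came from RefSeq (GRCm38.p6). In each pair of replicates, counts differed by more than sampling noise.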

Additional observations from a re-analysis of the deposited data

Results flagged for a closer look

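Among 27 sets of 4 libraries of 1 group examined for a member with any spread, 4 had a library far from the others. The cut-off used gives about 1 in 20 by chance only for normally distributed values. Counts this low are not, so the 4 of 27 cannot be set against that rate. In each, the other 3 libraries were at 0 and any reads in the fourth stand apart. These were H19 in ApoYap ctrl 1 at 0.283 CPM, H19 in Lats1/2 flox ctrl 1 at 0.329 CPM, Igf2 in Lats1/2 flox ctrl 2 at 0.114 CPM and Dlk1 in Lats1/2 flox ctrl 2 at 0.227 CPM, from 4, 3, 1 and 2 counts.

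The effect of doxycycline differed between ApoYap and BL/6 livers for all 5 tested members by edgeR's test of the difference. In that comparison 54.1% of all genes were called and 26.7% were higher, so calls were common. The net log2 values were 3.66 for Meg3, 2.04 for Peg3, 3.24 for Plagl1, 2.57 for Grb10 and 2.68 for Cdkn1c. Plagl1 kept its call in only 5 of the 15 fits that each left out 1 library. It had passed the filter only through ApoYap Dox and Lats1/2 KO libraries. The change after the Cre virus, at 1 week in floxed and at 24 hours in BL/6 livers, differed for Cdkn1c by 1.92. There, 24.4% of all genes were called and 13% were higher, and genotype and time cannot be told apart. The knockout response differed from the YAP response for Meg3 by -4.02, for Peg3 by -1.32 and for Grb10 by -1.55. There, 29.8% of all genes were called and 12.4% were lower. On leaving out each library in turn, Meg3 kept its call in 9, Peg3 in 12 and Grb10 in 5 of the 14 fits. Macrophage sums were higher in ApoYap Dox than in Lats1/2 KO libraries, and their part in these differences was not tested.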

How the results depend on the processing

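The 5 calls with YAP were kept under DESeq2, RLE factors, total counts alone, no filter, only the compared groups and the replicate block, and 4 to 5 members were called on leaving out each library. Total counts alone moved the median of all genes by 0.92 with YAP and 0.47 in the knockout, with 8613 genes higher and 1638 lower with YAP, against 4536 and 4148 with TMM. It called 2 members higher net of AAV-Cre, with Peg3 added (1.198, adjusted p = 0.042), and 0 higher in Lats1/2 flox ctrl against BL/6 ctrl. DESeq2 called 1 member lower there, Cdkn1c (-1.22, adjusted p = 0.039). With only the compared groups in the fit, 1 member was called higher in the knockout, because Plagl1 did not pass the filter, and Grb10 lost its call in the knockout less YAP difference (-1.53, adjusted p = 0.0573). Grb10 in Lats1/2 flox ctrl against BL/6 ctrl was -0.002 with DESeq2 and -0.019 with total counts alone, and Plagl1 in ApoYap ctrl against BL/6 ctrl was 0.012 and 0.034, each with a turned sign near 0. Without the filter, Plagl1 net of doxycycline lost its call (3.26, adjusted p = 0.053). The causes were not tested.

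Leaving out each library in turn gave 1 to 2 members called higher in the knockout and 1 to 2 net of AAV-Cre, 0 to 1 higher and 0 to 1 lower in Lats1/2 flox ctrl against BL/6 ctrl, and 0 to 3 lower in the knockout less YAP difference. Uncalled values that turned sign ran from -0.342 to 0.889 for Meg3 and -0.323 to 0.368 for Grb10 in the knockout, and from -0.567 to 1.285 for Plagl1 in the knockout less YAP difference. They ran from -0.13 to 0.265 for Peg3 and -0.441 to 0.622 for Plagl1 in ApoYap ctrl against BL/6 ctrl, from -0.25 to 0.259 for Grb10 and -1.161 to 0.3 for Plagl1 in Lats1/2 flox ctrl against BL/6 ctrl, and from -1.972 to 0.142 for Plagl1 and -0.51 to 0.051 for Peg3 with AAV-Cre.

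Libraries with the same replicate number were no more alike on average than others. Their deviations had a mean correlation of -0.02 over 69 pairs, from -0.432 to 0.352. Pairs with other numbers had a mean of 0.007 over 198 pairs, from -0.291 to 0.415. Correlations over 0.1 were found in 15 and 45 of these pairs. Such means cannot exclude that some libraries were paired. With the replicate block, 8544 genes were called with YAP against 8684 without it, and 5 members. The block ended the calls of Plagl1 net of doxycycline (3.30, adjusted p = 0.0575) and Grb10 in the knockout less YAP difference (-1.62, adjusted p = 0.052). Depth limits H19, Igf2, Dlk1 and Rian, for which a count of 0 in a library allows up to 3 counts.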
